A study of Saccharomyces cerevisiae with 50 samples.

Results

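The nuclear genes of the yeast respiratory chain and ATP synthase were followed through a synchronised cell cycle course. The set holds every nuclear gene of the deposited array table whose standard symbol is ATP, COX, QCR, SDH, CYC or CYT followed by a digit, together with COR1 and RIP1. Of 6204 open reading frames in the table, 60 met this rule. By role they were 36 subunits, 22 assembly factors, the SDH1 paralog SDH9, and CYC8. CYC8 encodes a general transcriptional corepressor that acts with Tup1 and is no part of the respiratory chain; it is included because the rule goes by symbol. COX26, SDH6 and ATP19 also carry such symbols and had no value to use here, and the mitochondrially encoded COX1, COX2, COX3, ATP6 and ATP8 lie outside the rule.

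Cells of the laboratory strain W303 of Saccharomyces cerevisiae had been arrested with alpha factor, the mating pheromone that stops MATa cells in G1, and released into the rich glucose medium YEPD. RNA was taken every 5 min, giving 25 time points from 0 to 120 min. Each RNA was hybridised against RNA of an asynchronous YEPD culture on 2 two-colour arrays, with the sample in Cy3 on replicate 1 and in Cy5 on replicate 2. Values below are log2 ratios of sample over asynchronous culture, averaged over the dye-swap pair, so that each time point counts once. Nothing in the labels speaks of more than 1 culture, so the p-values below measure only how time points within that course vary.

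Electrons from succinate enter the chain at complex II (succinate dehydrogenase), reach complex III (the cytochrome bc1 complex) through ubiquinone, and pass by way of cytochrome c to complex IV (cytochrome c oxidase). Complexes III and IV pump protons across the inner mitochondrial membrane, and the ATP synthase uses the gradient to make ATP. In budding yeast many of these nuclear genes are repressed by glucose and activated by heme and oxygen through Hap1 and the Hap2/3/4/5 complex, and a few encode isoforms used when oxygen is low.

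The 2 arrays of a time point correlated, after turning, with r between 0.196 and 0.673 over all open reading frames (median 0.472). Over the 25 time points, the 2 orientations of a member correlated with r between 0.0389 (QCR8) and 0.940 (RIP1), with a median of 0.571. All 7 pheromone-induced genes looked up, FUS1 and FIG1 among them, lay above 0 at 0 min in both orientations. The direction of the ratios was read in part from these genes, so this is no independent check of it. The times with the largest departures from their neighbours were 105 and 45 min, with root mean square departures of 0.587 and 0.538 over all open reading frames and 0.549 and 0.472 over the members. In replicate 1 the date in the array title changed between 55 and 60 min. In replicate 2 the titles gave 6 dates, and the arrays of 0 and 105 min each had a date of their own. The first and second cell cycle, taken as 0 to 55 and 60 to 115 min, thus coincide with the dates of replicate 1, and cycle and date cannot be told apart there.

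Most subunit genes stood above the asynchronous culture on average over the course. The mean over 25 time points was above 0 for 34 of 36 subunits, and for 3079 of all 6204 open reading frames. The median was 0.42 over subunits, against 0.06 over the 22 assembly factors and -0.0014 over all open reading frames. By complex it was 0.48 for the 4 subunits of complex II, 0.47 for the 9 of complex III, 0.52 for the 2 cytochromes c, 0.43 for the 9 of complex IV and 0.34 for the 12 of the ATP synthase. In all, 19 of 60 members lay above 0 at all 25 times, against 2.87% of all open reading frames. All 19 were subunits, 2 of 4 in complex II, 4 of 9 in complex III, 1 of 2 cytochromes c, 7 of 9 in complex IV and 5 of 12 in the ATP synthase, and none was an assembly factor. The asynchronous culture was a single reference whose own spread was not measured, so these levels are a description with no test. In RNA of a whole culture, more transcript in every cell and a larger share of cells with the transcript cannot be told apart.

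**Figure D1:**
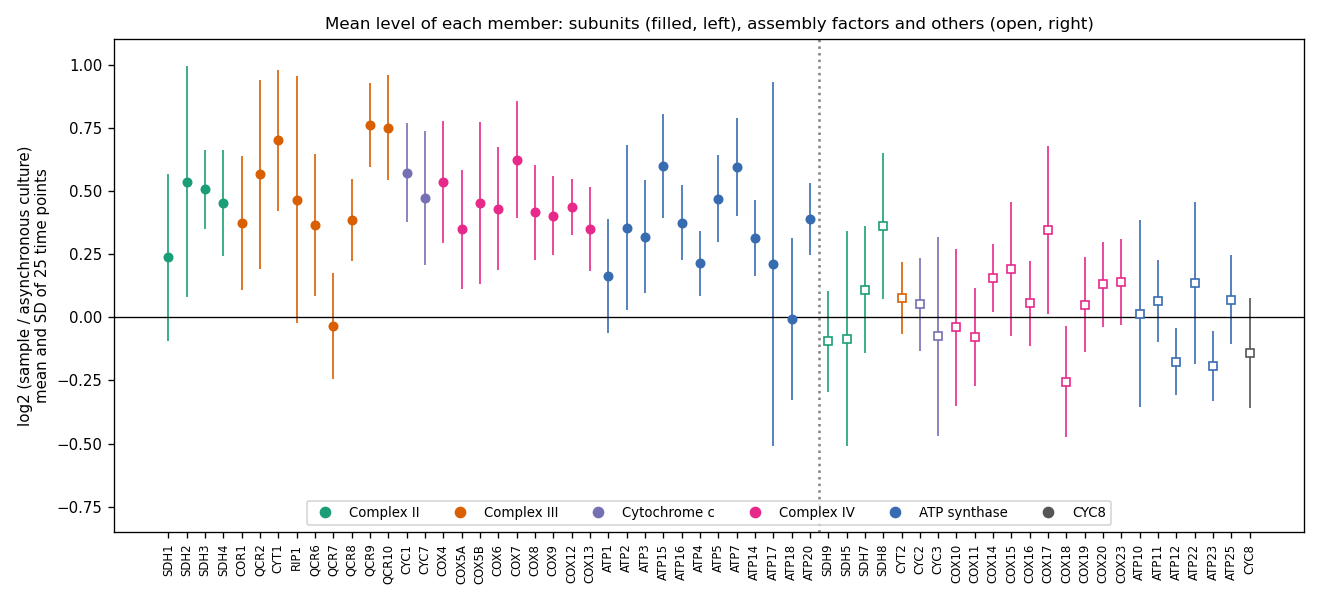
Mean (points) and SD (bars) over 25 time points of the log2 ratio of sample over asynchronous culture for each of the 60 members, with subunits filled on the left and other members open on the right, coloured by complex. Of the subunits, 34 of 36 lie above 0, and the assembly factors scatter around 0.06.

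The 3 highest mean levels belonged to complex III. QCR9, a small subunit of the complex, ranged from 0.54 to 1.11 with a median of 0.76, and averaged 0.76 ± 0.17 (SD, 25 time points). QCR10, another small subunit, ranged from 0.34 to 1.09 with a median of 0.69. CYT1, which encodes cytochrome c1, ranged from 0.01 to 1.30 and averaged 0.70 ± 0.28. All 3 were at or above the asynchronous culture at every time. Their neighbour QCR7, a subunit that contacts cytochrome b, was an exception in the complex, with a mean of -0.03 ± 0.21 and values above 0 at 11 of 25 times. The lowest value of QCR7, -0.83 at 0 min, came from -1.61 on the Cy3 array and -0.06 on the Cy5 array. The other subunit with a mean below 0 was ATP18, a small membrane subunit of the ATP synthase, with a mean of -0.0078 ± 0.32 and 8 of 25 times above 0.

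In complex IV, COX7 averaged 0.62 ± 0.23 and COX12, which faces the intermembrane space, 0.44 ± 0.11. The SD of COX12 was the smallest among the 60 members, and its 25 values lay between 0.20 and 0.66. In the ATP synthase, ATP15, the epsilon subunit of the central stalk, averaged 0.60 ± 0.21, and ATP7, subunit d of the peripheral stalk, 0.60 ± 0.19. The mean of ATP1, the alpha subunit of the catalytic head, was 0.16 ± 0.23. ATP17, subunit f, was at the lower limit of the deposited scale on 1 array, the Cy3 array of 45 min, where it read -6.64 against 0.27 on the Cy5 array, and its mean of 0.21 ± 0.72 includes that value. Ratios to the asynchronous culture do not rank the transcripts by abundance.

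Assembly factors, which insert cofactors or chaperone subunits without staying in the finished complex, lay between -0.25 (COX18, which exports part of Cox2 across the membrane) and 0.36 (SDH8, which assists the flavoprotein of complex II). SDH8 was above 0 at 24 of 25 times. COX17, the copper chaperone of complex IV, averaged 0.35 ± 0.33. The chaperones of the catalytic head, ATP11 and ATP12, averaged 0.06 ± 0.16 and -0.18 ± 0.13. CYC8 averaged -0.14 ± 0.22.

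**Figure D2:**
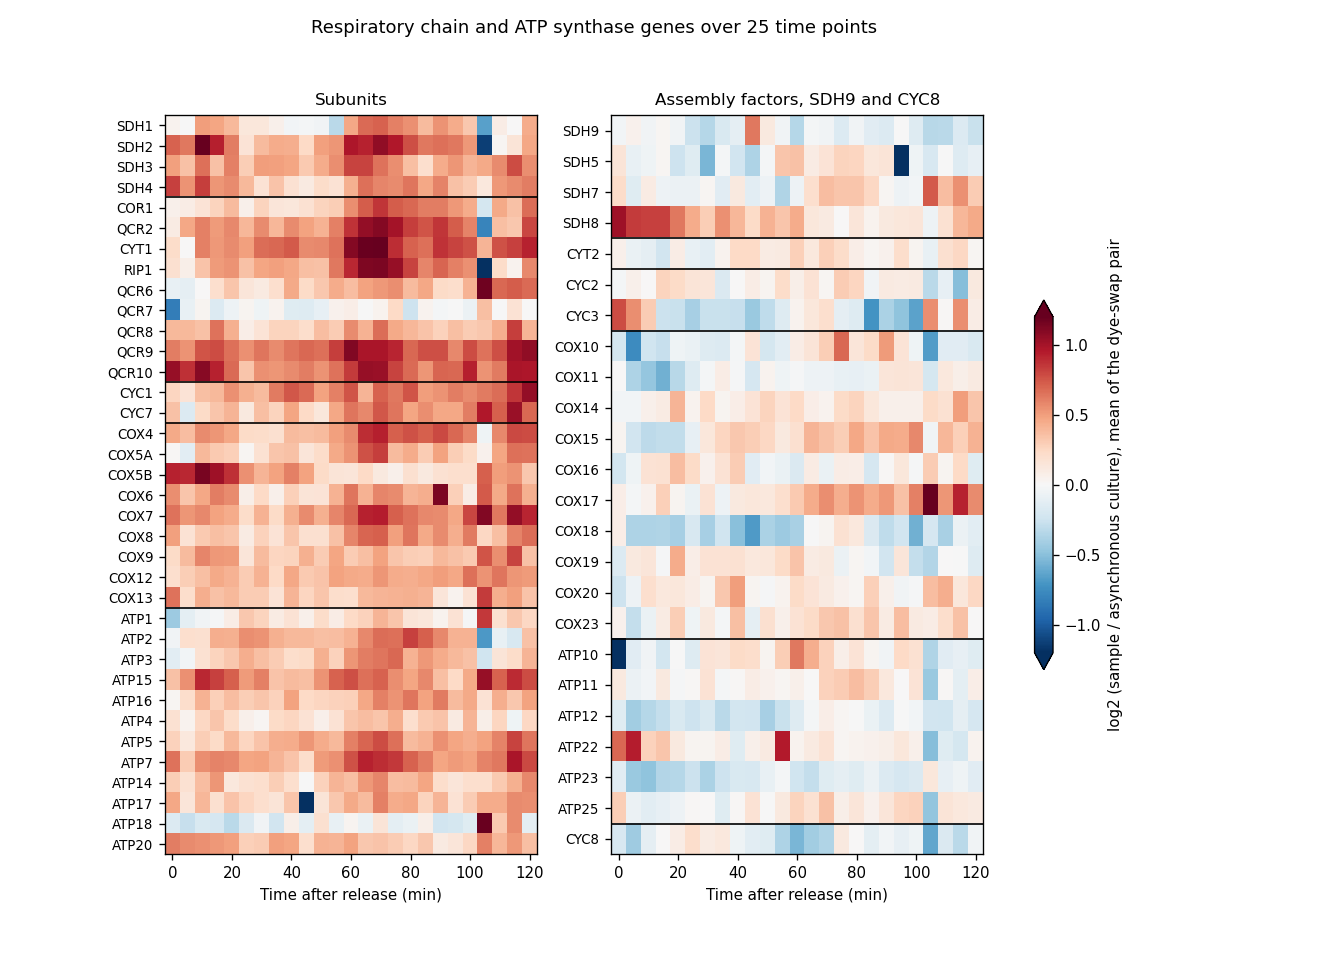
Heat map of the log2 ratio of sample over asynchronous culture (colour, mean of the dye-swap pair) for each member (lines) at each time after release (horizontal axis, min), with subunits left, other members right, and black lines between complexes. Subunits are mostly red, and the column at 105 min breaks the course in both directions, with RIP1 at -1.43 and COX17 at 1.38.

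A cosine with a period of 64 min, the period at which 48 known cell cycle genes had their highest mean R squared of 0.717, was fitted to each gene with a linear time term, and its sine and cosine were tested with limma. Of 60 members, 16 were periodic at an adjusted p under 0.05, against 34.3% of all open reading frames. The members' share was 26.7%. Subunits made up 13 of the 16, and 3 of 4 subunits in complex II, 4 of 9 in complex III, 3 of 9 in complex IV and 3 of 12 in the ATP synthase were called. Neither cytochrome c was. The remaining calls were 2 of 22 assembly factors, CYC3 and COX18, and CYC8. The fitted peaks of the 13 called subunits lay between -0.07 and 16.2 min around the start of a cycle, whose position repeats every 64 min.

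With all 25 time points kept, the widest swings among called members were in complex II. SDH2, its iron-sulfur subunit, ranged from -1.13 at 105 min to 1.20 at 10 min with a median of 0.61. It stood at 0.93 or above at 10, 15, 60, 65, 70 and 75 min and at 0.17 at 25 min, and its amplitude, the fitted distance from mean to peak, was 0.42 ± 0.10 (SE; adjusted p = 0.0076). SDH1, the flavoprotein subunit that oxidises succinate, ranged from -0.65 at 105 min to 0.71 at 70 min, with an amplitude of 0.37 ± 0.07 and a peak at 12.7 min (adjusted p = 8.63e-04). With title dates as terms neither SDH2 nor SDH1 passed (adjusted p = 0.238 and 0.176). SDH1 was high at 10 to 20 min and again at 60 to 80 min, and near or below 0 at 40 to 55 min. SDH4, a membrane anchor, ranged from 0.10 at 45 min to 0.83 at 10 min, with an amplitude of 0.24 ± 0.04 (adjusted p = 6.3e-04, and 0.0405 with title dates as terms). SDH3, the other anchor, was not called, with an amplitude of 0.12 ± 0.04 (adjusted p = 0.0689). Of the assembly factors of complex II, SDH5, which helps attach the flavin to Sdh1, had an amplitude of 0.30 ± 0.11 and did not pass (adjusted p = 0.0911). Its lowest value, -1.85 at 95 min, came from -3.69 on the Cy3 array and -0.00057 on the Cy5 array.

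In complex III the called subunits were COR1, QCR8, QCR9 and QCR10. COR1, a core subunit, ranged from -0.22 to 0.85 with an amplitude of 0.24 ± 0.05 (adjusted p = 0.0042). QCR10 had an amplitude of 0.22 ± 0.05 and ranged from 0.34 at 25 min up to 1.09, reached at 10 min (adjusted p = 0.0023). QCR2, the other core subunit, and RIP1, the Rieske iron-sulfur protein, had amplitudes of 0.30 ± 0.10 and 0.34 ± 0.13 and did not pass (adjusted p = 0.0584 and 0.137). Without 105, 110 and 115 min the amplitude of QCR2 was 0.18 and passed (adjusted p = 0.016), and that of RIP1 was 0.17 and did not (adjusted p = 0.0949).

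In complex IV the calls were COX4, COX7 and COX8. COX4, whose value ran between -0.05 at 105 min and 0.94 at 70 min, had an amplitude of 0.24 ± 0.05 and a peak at 7.89 min (adjusted p = 0.00121). The calls in the ATP synthase were ATP7, ATP14 and ATP16, with amplitudes of 0.19 ± 0.04, 0.15 ± 0.03 and 0.13 ± 0.03. The catalytic subunit ATP2 had an amplitude of 0.26 ± 0.08 and missed the threshold (adjusted p = 0.0549); without 105, 110 and 115 min it was 0.15 and passed (adjusted p = 0.0301).

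CYC3, the enzyme that attaches heme to cytochrome c, had the widest called swing outside the subunits. Its highest value was 0.78 at 0 min and its lowest -0.71 at 85 min, with an amplitude of 0.36 ± 0.09 and a peak at 61.2 min (adjusted p = 0.00725). Without 0 to 15 min its amplitude was 0.25 and was not called (adjusted p = 0.0757). COX18 had an amplitude of 0.22 ± 0.05 (adjusted p = 0.00813), which did not pass on the Cy5 arrays alone (adjusted p = 0.362). CYC8 peaked at 26.5 min with an amplitude of 0.20 ± 0.05 (adjusted p = 0.0111), away from the subunits called.

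Of the 16 calls, 10 held in each orientation alone. With title dates as terms, 14 members were called, against 27.7% of all open reading frames, and 8 of them were among the 16; COR1, QCR8, COX8, COX18, ATP7 and ATP16 were lost beside SDH1 and SDH2. Within the dates of replicate 1, each on about 1 period, 5 members were called over 60 to 120 min (against 14.4% of all) and 9 over 0 to 55 min (against 28.4%). Without 0 to 15 min 25 members were called (against 35.5%), with CYC3 and COX7 lost from the 16, and without the linear time term 10 (against 34.5%).

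**Figure D3:**
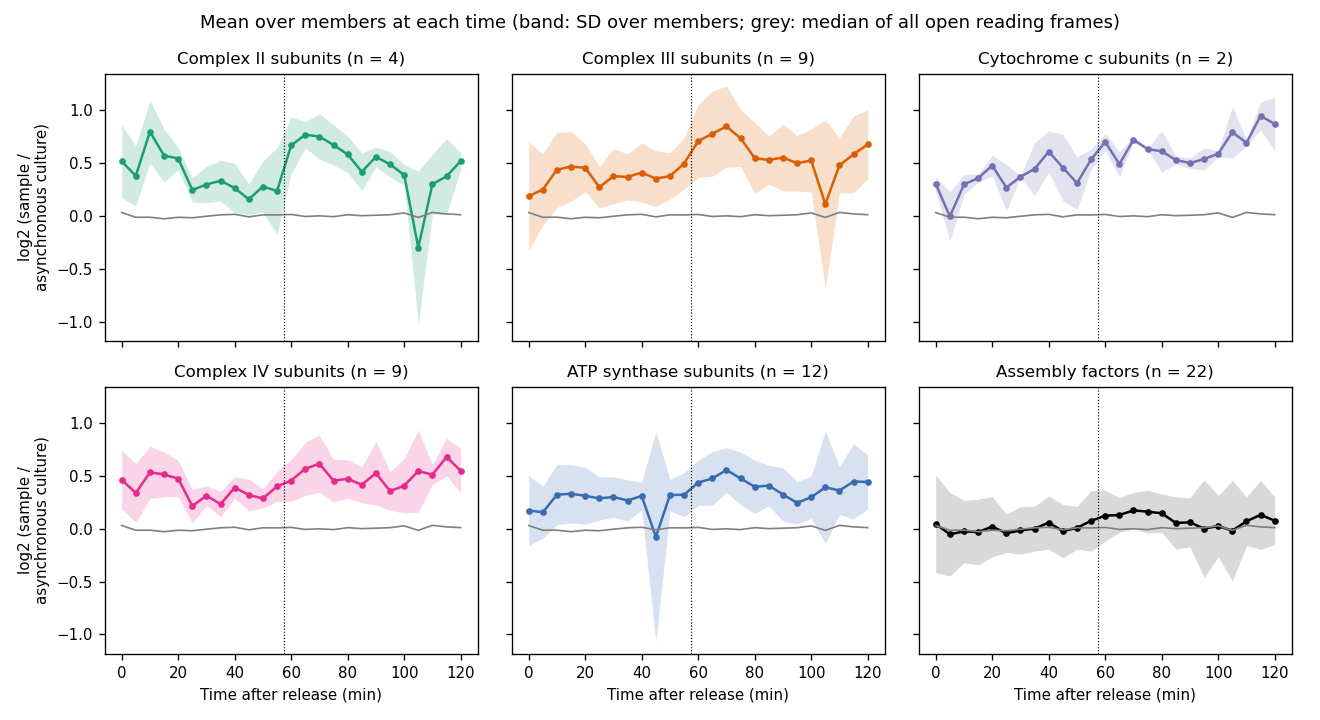
Mean log2 ratio of sample over asynchronous culture (vertical axis) by time after release (horizontal axis, min) for the subunits of each complex and for the assembly factors, with the SD over members as a band, the median of all open reading frames in grey and a dotted line between the cycles. Complex II stands at 0.39 at 100 min and at -0.30 at 105 min, while the cytochromes c stand at 0.79 at 105 min; the dip of the ATP synthase at 45 min holds the limit value of ATP17.

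The mean course of the subunits had its highest value, 0.68, at 70 min. Complex II had 2 crests, 0.80 at 10 min and 0.77 at 65 min, and a low of 0.16 at 45 min. Complex III stood at 0.44 at 10 min and at 0.85 at 70 min, and complex IV at 0.54 at 10 min and 0.62 at 70 min. The ATP synthase stood at 0.32 at 10 min and 0.56 at 70 min. The cytochromes c showed no such crest at 10 min (0.30) and ended the course at 0.95 at 115 min and 0.87 at 120 min. Assembly factors stayed between -0.05 and 0.18.

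Over pairs of members, the median r between courses was 0.319 for 145 pairs of subunits within a complex and 0.288 for 485 pairs between complexes. It was 0.438 within complex II, 0.368 within complex IV, 0.356 within complex III and 0.243 within the ATP synthase. Among the 231 pairs of assembly factors it was 0.0865, and over all pairs of open reading frames 0.0026. These values describe courses of 25 points that share arrays and the linear drift of the course. Across complexes, SDH2 and RIP1, both iron-sulfur subunits, had r = 0.848, and SDH1 and RIP1 had r = 0.800, against 0.793 for SDH1 and SDH2 within complex II. The 3 have their lowest value at 105 min in common.

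The members nearest the mean course of subunits were COX5A (r = 0.891), ATP7 (0.861) and COX8 (0.843), and the farthest was COX5B (-0.407). The mean contains each subunit itself and the limit value of ATP17, so r of subunits and of other genes are not directly comparable. Among genes outside the set, the highest r with that course over 25 time points belonged to VCX1 (0.860), SWS2 (0.842), PCL9 (0.834), SIC1 (0.827), AIM44 (0.823), PRR1 (0.806), CIR2 (0.801), GSY1 (0.786), FMP52 (0.776) and PIL1 (0.772). SIC1 encodes an inhibitor of cyclin-dependent kinase that accumulates at mitotic exit, and PCL9 a cyclin of the Pho85 kinase. The lowest r belonged to RPC34 (-0.748), YMC2 (-0.740), RNT1 (-0.727), YBL107W-A (-0.726) and BRE2 (-0.716).

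The level of the second cycle, 60 to 115 min, was compared with that of the first, 0 to 55 min, over 12 time points each with the phase of the cosine held. Of 60 members, 21 (35.0%) were higher in the second cycle, against 9.91% of all open reading frames, and 3 (5%) were lower, against 10.3%. The higher members were 14 subunits and 7 assembly factors. By complex, both cytochromes c, 5 of 9 subunits in complex IV, 4 of 9 in complex III, 3 of 12 in the ATP synthase and 0 of 4 in complex II were higher. In complex II the differences ran from -0.06 ± 0.14 (SE) for SDH2 to 0.23 ± 0.09 for SDH1, whose adjusted p was 0.0762; at an unadjusted p under 0.05, 1 of 4 was higher. Without 105, 110 and 115 min the difference of SDH1 was 0.34 and was called (adjusted p = 0.00114), and that of SDH2 was 0.17 (adjusted p = 0.0961).

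With all time points kept, COX17 differed most. Its 12 values of the second cycle lay between 0.32 and 1.38 with a median of 0.52, and those of the first between -0.08 and 0.29 with a median of 0.10. The cycles did not overlap, and the difference was 0.51 ± 0.09 (1.42-fold; adjusted p = 3.39e-04). CYC7, one of the genes of cytochrome c, lay between 0.46 and 1.04 in the second cycle and between -0.17 and 0.47 in the first, a difference of 0.39 ± 0.07 (adjusted p = 5.42e-04). COX15, which makes heme A for complex IV, lay between -0.05 and 0.58 in the second cycle and between -0.31 and 0.33 in the first, a difference of 0.34 ± 0.08 (adjusted p = 0.00357). QCR6, an acidic subunit next to cytochrome c1, lay between 0.21 and 1.17 in the second cycle and between -0.10 and 0.46 in the first, a difference of 0.33 ± 0.08 (adjusted p = 0.00571).

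The 3 lower members were SDH8, COX5B and ATP22. SDH8 lay between -0.06 and 0.45 in the second cycle and between 0.23 and 1.02 in the first, and the difference was -0.42 ± 0.07 (adjusted p = 4.56e-04). COX5B lay between 0.06 and 0.72 in the second cycle and between 0.15 and 1.14 in the first, a difference of -0.38 ± 0.11 (adjusted p = 0.0164). Without 0 to 15 min the difference of COX5B was -0.14 and was not called (adjusted p = 0.292), and that of SDH8 was -0.27 and was called (adjusted p = 0.0108). ATP22, a factor for translation of a mitochondrial ATP synthase messenger, had a difference of -0.31 ± 0.10 (adjusted p = 0.0256). Its value of 0.95 at 5 min came from 0.98 and 0.91 (Cy5 and Cy3), and that of 0.95 at 55 min from 1.79 on the Cy5 array and 0.11 on the Cy3 array. On the Cy5 arrays alone the call was lost (adjusted p = 0.223).

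None of these calls passed in limma when the title date of replicate 2 entered as a random block (20 higher and 4 lower at an unadjusted p under 0.05), with 26 open reading frames higher and 35 lower in the whole table; SDH8 then had an adjusted p of 0.0582, CYT1 of 0.0649 and COX17 of 0.0847. Only the 60 min array of the second cycle shared a date with the first cycle in replicate 2, which is too few for a value within a date. Without 0 to 15 min 10 members were higher (against 11.3% of all open reading frames), and QCR6 was among those lost (adjusted p = 0.0503). On the Cy5 arrays alone 11 were higher (against 5.37% of all).

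The windows of 65 to 80 min and 0 to 15 min lie about a period apart, and the earlier one directly follows the pheromone arrest. With 4 time points in each, 16 members (26.7%) were higher at 65 to 80 min, against 6.16% of all open reading frames, and 3 (5%) were lower, against 9.40%. Higher were 5 of 9 subunits of complex III, 5 of 12 of the ATP synthase, 1 of 2 cytochromes c, 1 of 9 of complex IV, 0 of 4 of complex II (1 at an unadjusted p under 0.05) and 4 of 22 assembly factors.

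Among subunits the 2 largest increases were those of RIP1 and CYT1, which carry electrons in complex III. RIP1 stood at 1.12, 1.13, 1.04 and 0.81 at 65, 70, 75 and 80 min, against 0.19, 0.07, 0.34 and 0.51 at 0, 5, 10 and 15 min. The windows did not overlap, and the difference was 0.75 ± 0.11 (SE; 1.68-fold; adjusted p = 0.00445). CYT1 stood at 1.19, 1.30, 0.88 and 0.71 in the later window, against 0.22, 0.01, 0.60 and 0.52 in the earlier, a difference of 0.68 ± 0.17 (adjusted p = 0.0318) that missed the threshold on the Cy5 arrays alone (adjusted p = 0.0610) and with the date of replicate 2 as a random block (adjusted p = 0.0690). COR1 stood at 0.73, 0.85, 0.73 and 0.69 in the later window, against 0.06, 0.09, 0.17 and 0.26 in the earlier, a difference of 0.60 ± 0.07 (adjusted p = 0.00135). QCR2 and QCR6 followed with 0.58 ± 0.12 and 0.48 ± 0.09, and QCR2 missed the threshold on the Cy5 arrays alone (adjusted p = 0.106). The remaining 4 subunits of complex III were not called, with differences between -0.09 for QCR10 and 0.27 for QCR7, whose arrays of 0 min differed as given above.

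In the ATP synthase the calls included subunits of its F1 part, which makes the ATP. The alpha, beta and gamma subunits ATP1, ATP2 and ATP3 differed by 0.44 ± 0.11, 0.49 ± 0.11 and 0.52 ± 0.11 (adjusted p = 0.0272, 0.0197 and 0.0149). Of these, ATP3 passed in each orientation alone. ATP1 passed in neither (adjusted p = 0.0679 for Cy5 and 0.0996 for Cy3), and ATP2 did not pass on the Cy3 arrays (adjusted p = 0.0878). ATP3 stood at 0.61, 0.64, 0.69 and 0.41 in the later window, against -0.12, -0.03, 0.18 and 0.27 in the earlier. ATP16 and ATP5, the delta subunit and the stalk subunit that is also called OSCP, were the other 2 calls, and ATP15 differed by -0.05 ± 0.13. On the Cy3 arrays alone ATP16 and ATP5 did not pass (adjusted p = 0.153 and 0.147). ATP20, subunit g, which takes part in joining ATP synthases into dimers, was lower, with 0.32, 0.35, 0.30 and 0.25 in the later window, against 0.61, 0.57, 0.55 and 0.52 in the earlier. Its difference of -0.26 ± 0.06 passed in the pair means (adjusted p = 0.0209) but in neither orientation alone (adjusted p = 0.0662 for Cy5 and 0.477 for Cy3).

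Among the assembly factors COX10, COX15, COX17 and ATP12 were higher. COX10 makes the heme O from which COX15 makes heme A. COX10 stood at 0.15, 0.30, 0.69 and 0.15 in the later window, against -0.21, -0.75, -0.24 and -0.28 in the earlier, a difference of 0.69 ± 0.16 (adjusted p = 0.0249, and 0.0759 with the date block), and COX15 differed by 0.58 ± 0.09 (adjusted p = 0.00476). SDH8 was lower, at 0.14, 0.11, 0.01 and 0.15 in the later window, against 1.02, 0.84, 0.82 and 0.82 in the earlier, a difference of -0.77 ± 0.07 (adjusted p = 5.26e-04). The 7 MATa-specific genes, which include AGA2 and STE2, had window means between -0.87 and 0.33 at 65 to 80 min, against 0.23 to 3.54 at 0 to 15 min. All 7 were lower in the later window, 3 of them called, and their part in these differences was not tested.

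Of the 16 members called higher, 8 passed in each orientation alone, and 10 were also higher in the level of the second cycle, which shares these time points. With the date of replicate 2 as a random block 10 members were higher, against 3.11% of all open reading frames. CYT1, CYC1, COX10, ATP5, ATP12 and ATP16 were lost. Both windows lie on different dates in each replicate, so window and date cannot be told apart. The count of higher members was 4 without 70 min, 7 without 75 min, 9 without 5 min and 10 without 65 min. The shares of all open reading frames in these settings were 2.64%, 2.84%, 4.46% and 3.66%. The count of lower members was 5 without 15 min, against 11.4% of all.

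**Figure D4:**
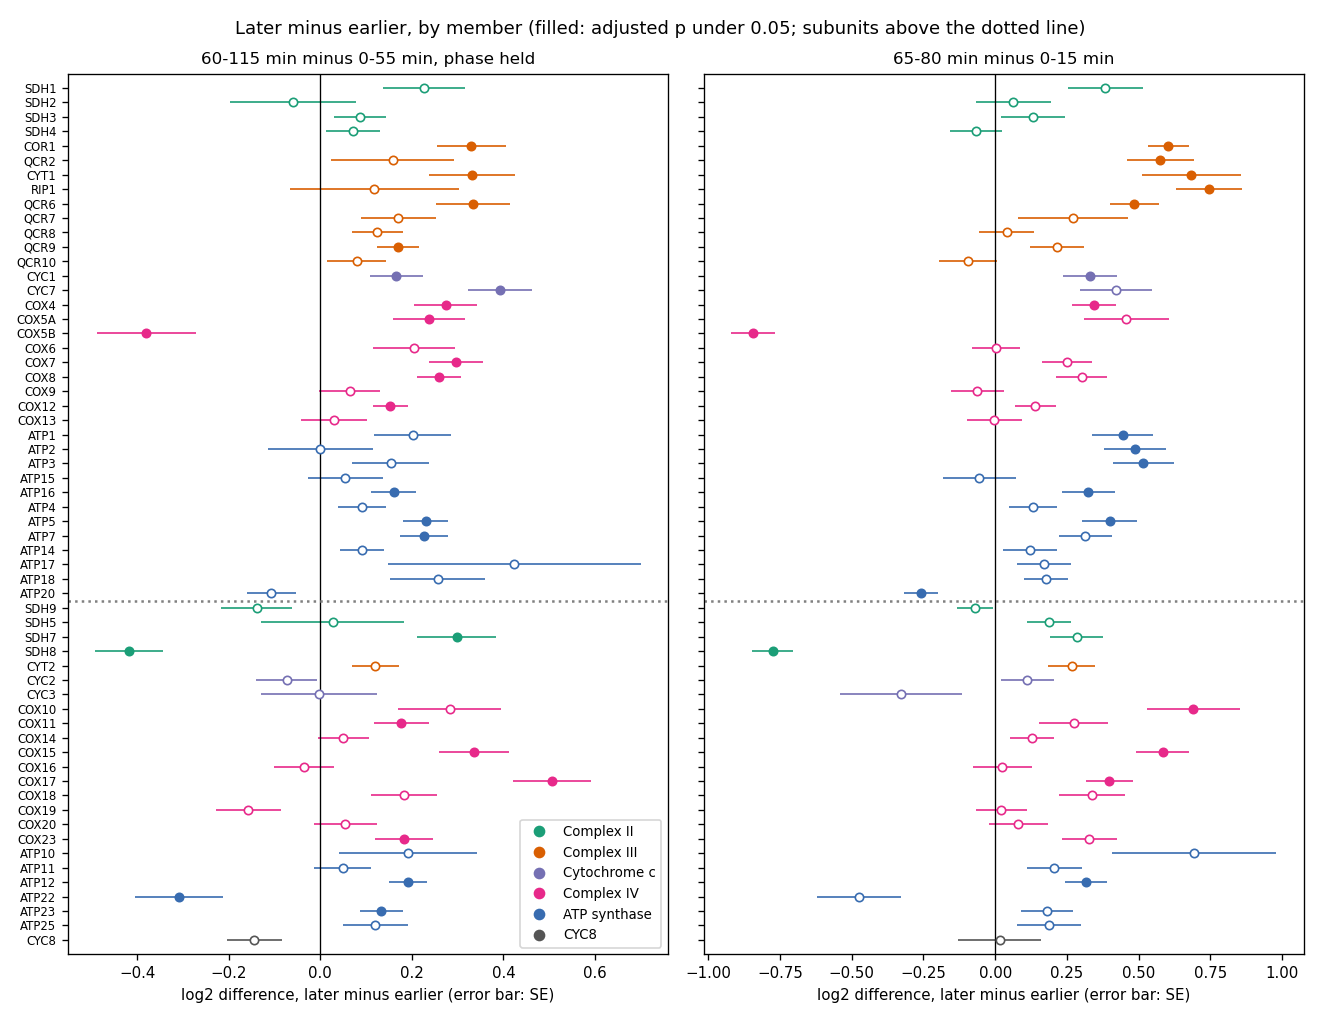
Difference in log2 ratio for each member with its SE, for the second minus the first cycle with the phase held (left) and for 65 to 80 min minus 0 to 15 min (right), with filled points for adjusted p under 0.05, colours for complexes and subunits above the dotted line. Most points lie right of 0, and COX5B and SDH8 lie farthest left in both panels.

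The paired genes for one subunit differed most in complex IV. COX5A and COX5B encode alternative forms of one subunit, of which COX5B is the form used when oxygen is low. COX5B stood at 0.24, 0.12, 0.06 and 0.19 in the window of 65 to 80 min, against 0.92, 0.90, 1.14 and 1.02 at 0 to 15 min, which is 0.557 of the earlier ratio (difference -0.84 ± 0.08; adjusted p = 5.08e-04). COX5A stood at 0.76, 0.83, 0.38 and 0.45 in the later window, against 0.02, -0.13, 0.38 and 0.31 in the earlier, a difference of 0.46 ± 0.15 that did not pass (adjusted p = 0.0735). The courses first crossed between 50 and 55 min and had r = -0.465 over 25 time points. At 105 min COX5B stood at 0.72 and COX5A at 0.05. COX5B was above 0 at all 25 times and COX5A at 24, and neither was below the asynchronous culture at more than 1 time.

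CYC1 encodes iso-1-cytochrome c, the main form in aerobic cells, and CYC7 iso-2-cytochrome c. CYC1 lay between 0.41 and 0.86 in the second cycle with a median of 0.62, and between 0.16 and 0.75 in the first with a median of 0.46. Its level difference of 0.17 ± 0.06 (adjusted p = 0.0437) did not pass on the Cy5 arrays alone (adjusted p = 0.580), while that of CYC7 passed in the pair means as given above. The r between CYC1 and CYC7 was 0.656.

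SDH9, a close paralog of SDH1, did not follow it. Its mean was -0.10 ± 0.20, it was above 0 at 4 of 25 times, and it was called in none of the comparisons above. The r between SDH1 and SDH9 was -0.0062. The highest value of SDH9, 0.63 at 45 min, came from 1.02 on the Cy3 array and 0.25 on the Cy5 array.

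SDH8 and COX5B, which work in different complexes, had courses with r = 0.761, both high after release and low at 65 to 100 min.

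**Figure D5:**
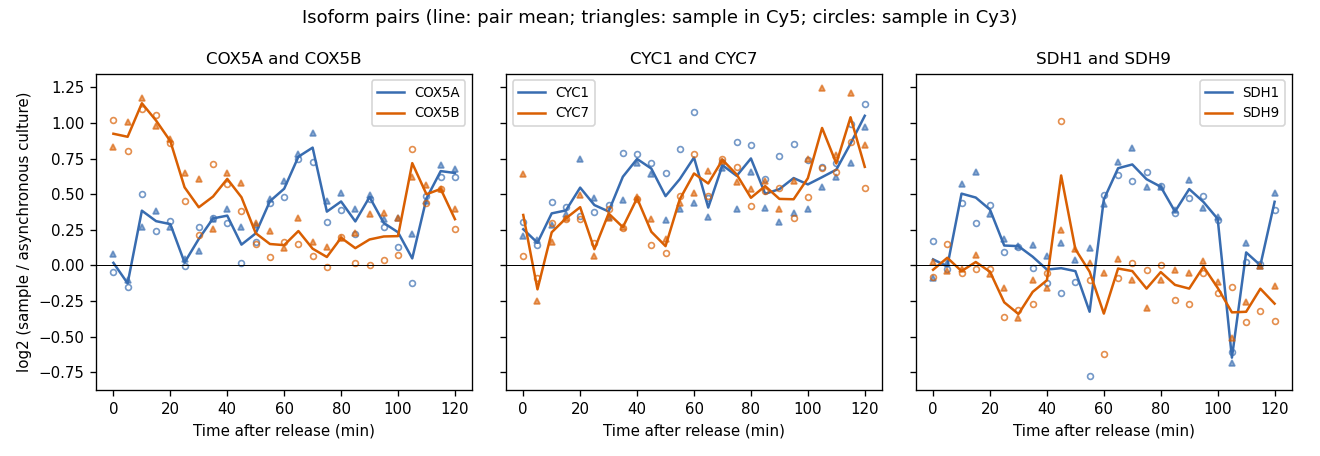
Log2 ratio of sample over asynchronous culture (vertical axis) by time after release (horizontal axis, min) for COX5A and COX5B, CYC1 and CYC7, and SDH1 and SDH9, as the pair mean (line) and the Cy5 (triangles) and Cy3 (circles) arrays. COX5B starts at 0.92 and COX5A at 0.02, and the lines first cross between 50 and 55 min.

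In 12 of 60 members the cosine fitted to the second cycle differed from that of the first, a share of 20%, against 20.0% of all open reading frames. ATP2 had an amplitude of 0.53 in the second cycle and 0.19 in the first. RIP1 had 0.67 in the second and 0.10 in the first, and COX15 0.09 in the second and 0.32 in the first. The other 9 were COX5B, ATP3, COX10, CYT1, SDH8, ATP5, ATP15, ATP22 and ATP11. Without 105, 110 and 115 min 8 members were called, against 9.17% of all, and 7 of them were among the 12. The second-cycle amplitude of RIP1 was then 0.26 and of ATP2 0.26.

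At 105 min members of the same complex stood at opposite ends of their range. RIP1 stood at -1.53 on the Cy5 array and -1.33 on the Cy3 array of 105 min, and its pair mean differed by -1.99 from the mean of 100 and 120 min. SDH2 stood at -0.71 and -1.56 (Cy5 and Cy3), QCR2 at -0.96 and -0.63, ATP2 at -0.98 and -0.39, and SDH1 at -0.68 and -0.61. All 5 had their lowest value there. COX17 stood at 1.06 and 1.70 on the same arrays, ATP18 at 1.57 and 0.80, QCR6 at 1.26 and 1.07, COX7 at 1.32 and 0.90, and ATP15 at 1.01 and 1.07, and all 5 had their highest value there. Complex III thus held both RIP1 and QCR6, and the ATP synthase both ATP2 and ATP1, which stood at 0.85. Of the 60 members, 38 were lower at 105 min than the mean of 100 and 120 min, against 3201 of all 6204 open reading frames. For the 5 low and the 5 high members above, the 2 arrays of 105 min had the same sign. In some other members they did not, as in COX19 (0.31 on the Cy5 array and -1.02 on the Cy3 array) and CYC2 (-0.83 and 0.19). The part of RNA quality in the departures at 105 min was not tested. Without 105, 110 and 115 min 24 members (40%) were periodic, among them all 16, against 43.0% of all open reading frames. In the same setting 26 were higher in the second cycle, against 12.6% of all; SDH1, QCR2, RIP1 and ATP2 were among those gained, and CYC1 and ATP22 among those lost.

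The dye orientations differed for 36 of 60 members (60%), against 46.6% of all open reading frames. This held for 18 of 22 assembly factors and 17 of 36 subunits. ATP23, which processes Atp6, averaged 0.03 with the sample in Cy5 and -0.41 with the sample in Cy3, and CYC3 averaged 0.13 and -0.28. The sign of their mean level depends on the orientation.

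Genes of neighbouring pathways were looked up in lists chosen with earlier results of these data known, and each count is to be read against the background shares given above. In the tricarboxylic acid cycle, which shares succinate dehydrogenase with the chain, 11 of 11 genes had a mean above 0, led by CIT1, citrate synthase, at 1.21, and 5 were periodic. MDH1, malate dehydrogenase, was higher at 65 to 80 min (0.67, against -0.26 at 0 to 15 min; adjusted p = 0.0170), and LSC2, a subunit of succinyl-CoA ligase, was lower (0.21, against 0.84; adjusted p = 0.00219). Of 6 NADH and other dehydrogenases that feed electrons in, 3 were periodic: NDI1, NDE1 and GUT2, with amplitudes of 0.29, 0.25 and 0.35. Of 10 ubiquinone synthesis genes 7 were periodic, with COQ5 at an amplitude of 0.33, and 3 were higher in the second cycle.

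Among 9 carriers and regulators of the ATP synthase, 5 were higher and 4 lower at 65 to 80 min. PET9, the main ADP/ATP carrier, averaged 0.77 in the later window, against 0.23 in the earlier, and MIR1, the phosphate carrier, 0.54, against -0.16. INH1, the inhibitor of the ATP synthase in de-energised mitochondria, averaged 0.77, against 0.45. STF1, which acts with the inhibitor, averaged 0.48, against 1.54, a difference of -1.05 (adjusted p = 0.00107). TIM11, subunit e of the ATP synthase, was lower as ATP20 was, with 0.50, against 0.78 (adjusted p = 0.0459).

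Of 18 further assembly factors and translational activators, 8 were higher in the second cycle and 5 at 65 to 80 min and none lower in either by limma (0 in either at an unadjusted p under 0.05). They included OXA1, which inserts mitochondrial products into the inner membrane, with 0.31 in the later window, against -0.20, and PET122, an activator of COX3 translation, with -0.16, against -0.83. Of 8 heme synthesis genes, HEM2 was higher at 65 to 80 min and HEM13, which needs oxygen, was lower in the second cycle by -0.59 (adjusted p = 0.00533). Of 10 regulators, HAP1 was lower in the second cycle (difference -0.90; adjusted p = 1.93e-04), as was HAP4 (-0.37; adjusted p = 0.0210), and MIG1, a repressor of glucose-repressed genes, was higher at 65 to 80 min (0.47, against -0.36; adjusted p = 0.00547). All 12 fermentation genes, ADH1 and PDC1 among them, had a mean below 0, with a median of -0.22, and 2 of 12 were periodic.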

How the data were processed

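The authors deposited a value table of log ratios, 1 column per array. Its base and direction are not stated in the labels; the deposited values end exactly at -2 and 2, and were read as log10 of Cy5 over Cy3. The direction is likely rather than stated. It rests on the dye labels and on the pheromone-induced genes at 0 min. The labels do not state how the authors scanned, normalized or centred the arrays. Array medians lay between -0.0046 and 0.0345 log10 units. Of 6217 lines, 6204 named an open reading frame, and 5704 took a symbol from the RefSeq gene table, used for names only. Over all frames 438 values were missing and 709 at the limit; over members 4 and 1.

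Values were converted to log2, replicate 1 was turned, and the pair was averaged. The 2 arrays of a pair share RNA and counted once. Tests used limma 3.58.1 in R 4.3.3 with Benjamini-Hochberg adjustment over 6204 frames and a threshold of 0.05. The period was scanned from 40 to 90 min (mean R squared 0.717 at 64 min, 0.714 at 66 min, 0.694 at 60 min). Peak and amplitude are from the fitted cosine. On simulated courses of 6204 genes, a periodic amplitude of 0.2 was recovered for 50% and of 0.4 for 85% of 100 genes, a level difference of 0.2 for 25% and of 0.4 for 76%, and a window difference of 0.4 for 14% and of 0.8 for 72%.

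Members, lists and roles were chosen with earlier results of these data known. Courses are given for the 8 largest called amplitudes, the 4 largest called changes each way and the isoform pairs; other members were named for their role, level or value at 105 min after their values were seen. Promoter motifs were planned and are not analysed here. Alternatives covered each orientation alone, scaling, period, linear term, correlated errors, dates, the limit values, and leaving out times.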

Additional observations from a re-analysis of the deposited data

Results flagged for a closer look

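In the 38 groups of 4 time points tested, a single time stood apart from the rest in 2. SDH8 at 0 min (1.02) lay above 5, 10 and 15 min (0.84, 0.82 and 0.82), with a gap of 0.932 of the group's range. COX10 at 5 min (-0.75) lay below its neighbours, with a gap of 0.872. Both gaps are above Dixon's 95% critical value, which chance alone passes in about 1 of 20 groups. The 2 of 38 groups found here are near that share.

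The fitted cosine differed between the second and the first cycle in 12 members by limma's interaction test. This share of 20% of members was that of all open reading frames, 20.0%. The adjusted p was 0.00199 for COX5B, 0.00338 for ATP2, 0.00440 for COX15, 0.00954 for ATP3, 0.0128 for CYT1 and 0.0128 for COX10. It was 0.0259 for SDH8, 0.0329 for ATP5, 0.0366 for ATP15, 0.0377 for ATP22, 0.0378 for ATP11 and 0.0390 for RIP1. Without 105, 110 and 115 min 8 members were called, 7 of them among the 12, against 9.17% of all open reading frames.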

How the results depend on the processing

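Leaving out replicate 1 or replicate 2 left 13 to 14 periodic members, against 24.9% to 28.0% of all open reading frames. It left 11 to 20 members higher in the second cycle, against 5.37% to 8.80% of all. In 7 to 9 members the cosine differed between cycles, against 9.24% to 14.2% of all. For 65 to 80 min minus 0 to 15 min, leaving out a replicate or a time point left 4 to 24 higher and 2 to 5 lower. Over all open reading frames the same settings left 2.64% to 7.51% higher and 5.17% to 11.4% lower. Quantile normalization gave 25 periodic members, against 45.7% of all open reading frames, and 29 higher at 65 to 80 min, against 6.62%. Without the linear time term 10 were periodic, without 0 to 15 min 25, over 60 to 120 min alone 5 and over 0 to 55 min alone 9. The shares of all open reading frames in these settings were 34.5%, 35.5%, 14.4% and 28.4%. Without 0 to 15 min 10 members were higher in the second cycle, against 11.3% of all open reading frames. The date of replicate 2 as a random block was a setting chosen after seeing the data. In the second cycle this block gave 0 members higher and 0 lower (20 and 4 at an unadjusted p under 0.05). Over all open reading frames 0.419% were higher and 0.564% lower. At 65 to 80 min the block gave 10 members higher, against 3.11% of all. Some of these settings have fewer time points, and the cause of the moves was not tested. Without 45 min and with a period of 66 min, also chosen after seeing the data, counts of members stayed within 1.5 times. Of 124 values of single members with either replicate left out, limit values missing or arrays centred, 111 kept their side of the threshold, 10 lost it, 3 gained it and 0 changed sign. This count leaves out the settings on dates and on times left out, in which calls printed above were lost or gained. With limit values missing the estimates counted could not change, since the only member value at the limit was of ATP17, which is not counted. No paired analysis was possible because the replicates of a time point are dye swaps of the same RNA, which were averaged. The precision is limited by the number of arrays, 2 per time point, and by the single course.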
